A study of Homo sapiens with 6 samples.

Results

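The genes described here build or assemble the axoneme, the microtubule core that makes motile cilia and sperm tails beat. They are the axonemal dynein heavy and intermediate chains (DNAH and DNAI genes), the dynein arm assembly factors (DNAAF), the cilia and flagella associated proteins (CFAP), the radial spoke head genes (RSPH), SPAG1, SPAG6, SPAG16 and SPAG17, and the tektins TEKT1 to TEKT4. The genes were picked by symbol, with no threshold on a measured value, and 87 of the 47470 genes in the count tables matched. This set of genes was chosen with earlier results of these data known. RNA was sequenced from HEK293T cells, a line from human embryonic kidney into which SV40 large T antigen was introduced, used in both groups. Untreated cells were compared with cells treated for 1 day with valproic acid (VPA) at 1 mM, which inhibits histone deacetylases, with 3 libraries in each group. The deposited values are raw read counts per gene, and the totals on genes ranged from 18622267 to 18828495 over the 6 libraries. The labels give replicate numbers but do not say whether the libraries came from separate cultures, so p-values measure the spread between these libraries, which may be technical.

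In a motile cilium, outer and inner dynein arms sit on the doublet microtubules and walk along the neighbouring doublet, and the sliding is turned into bending. The arms are built in the cytoplasm by assembly factors before they are carried into the cilium. Radial spokes pass signals from the central pair of microtubules to the arms, and tektins and other small proteins line the inside of the doublets. In multiciliated epithelia these genes are switched on together by a cascade that includes GMNC, MCIDAS and MYB and ends in FOXJ1 and the RFX factors, and defects in many of them cause primary ciliary dyskinesia. HEK293T cells are not multiciliated, and most dividing cells of this kind can form at most an immotile primary cilium, which has no dynein arms.

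Of the 87 genes, 5 were at 0 in all 6 libraries (CFAP100, CFAP107, CFAP47, DNAAF6 and RSPH6A). CFAP47 and DNAAF6 lie on chromosome X, for which every gene is listed at 0 in these tables. For genes on other chromosomes, a count of 0 in a library still allows up to 3 counts at this depth, for counting error only. Another 26 genes had counts but too few for the test, which left 56 tested genes. The filter asks for about 10 counts in at least 3 libraries. Of the 56 genes, 39 were above that minimum in all libraries and 17 were above it in all VPA-treated libraries and in only some or no untreated ones. Genes of the latter kind entered the test through the VPA-treated group, and 12 of the 17 were up-regulated while CFAP53, CFAP57, DNAAF8, RSPH14 and TEKT2 did not pass. Counts over the tested genes therefore lean toward genes that were high after VPA, among all tested genes as among these.

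VPA-treated cells had more RNA of many axonemal genes, most of which were close to silent in untreated cells. By edgeR's quasi-likelihood test, 19 of the 56 tested genes were up-regulated (log2 fold change of 1 or more at an adjusted p under 0.05) and 0 were down-regulated. Over all 15298 tested genes these calls were made for 12% and 0.503%. At the adjusted p alone 30 genes were higher and 5 lower in VPA-treated cells, against 32.9% and 30% of all tested genes, and 21 did not pass. The median log2 fold change was 0.49 over the 56 genes and 0.0058 over all tested genes. Every VPA-treated library was above every untreated library for 33 of the tested genes and below for 5, and the shares over all tested genes were 34.8% and 31%. Among the 39 genes above the minimum in all libraries, 7 were up-regulated, 18 higher and 5 lower, against 8.01%, 30.5% and 32.8% of all 13782 such genes, and the median log2 fold change was 0.30 against -0.02.

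These genes are mostly low in HEK293T cells, and among all tested genes up-regulation by VPA was called more often for low genes, a share that the filter raises: of the 330 genes under 20 normalized counts that were above the minimum in all libraries, 0.303% were up-regulated. Among genes with a mean under 20 normalized counts, 10 of 16 axonemal genes were up-regulated, against 31% of all tested genes of that level, but 15 of the 16, with all 10 of these, had passed the filter through the VPA-treated libraries only. At 20 to 50 normalized counts the numbers were 8 of 17 against 27.7%, and 6 of 15 against 16.1% for genes above the minimum in all libraries. At 50 to 200 normalized counts 0 of 5 were up-regulated against 24.3%, and at 200 or more 1 of 18 against 3.38%. The median log2 fold changes in these 4 classes were 1.20, 0.82, 0.67 and 0.03 for the axonemal genes, and 0.44, 0.36, 0.34 and -0.08 for all tested genes of the class. Of the 19 up-regulated genes, 7 were above the minimum in all libraries and 12 in the VPA-treated libraries only. Their mean in untreated cells was between 4.17 and 113 normalized counts.

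**Figure D1:**
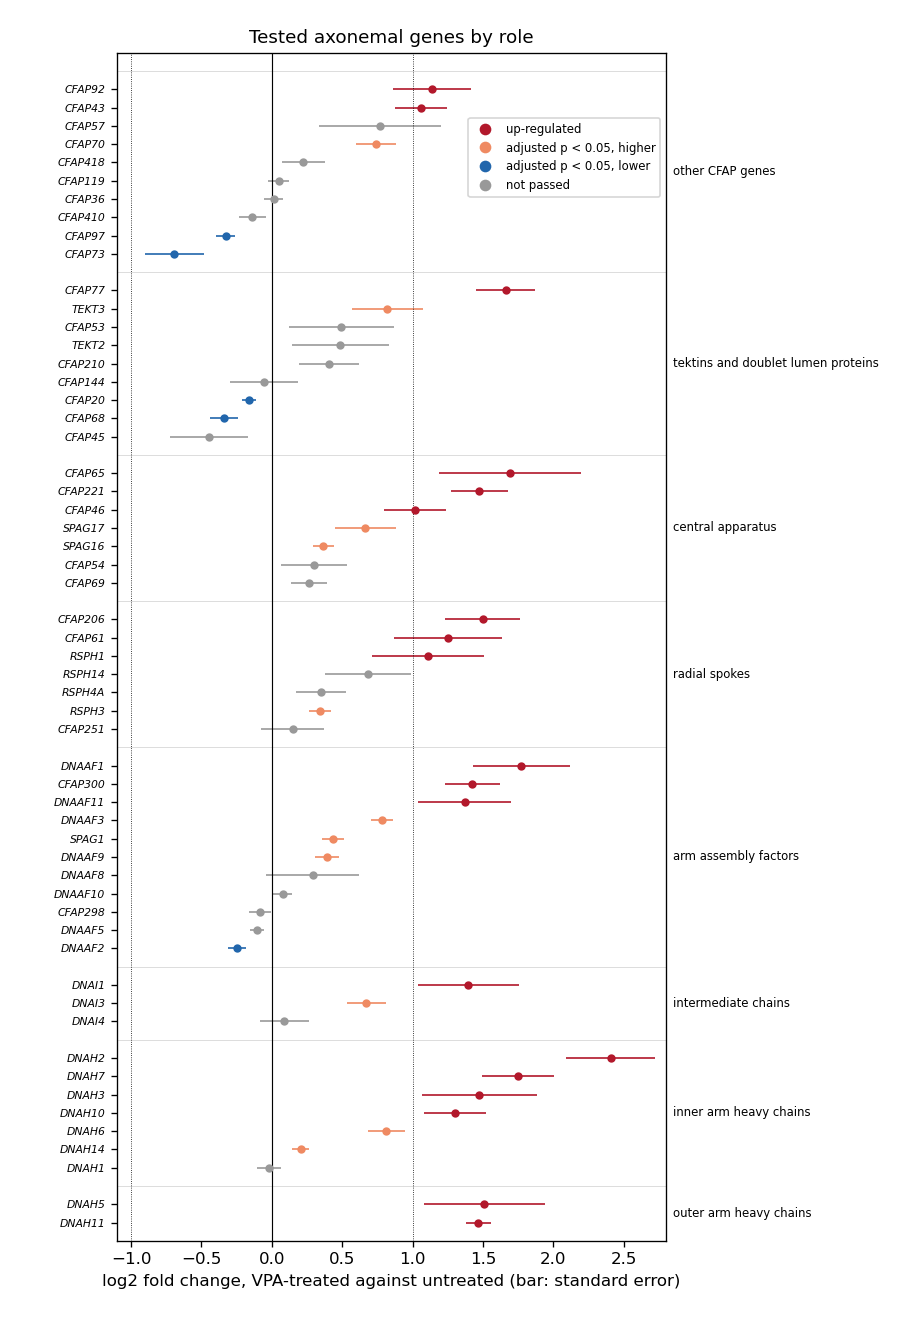
The x axis is the log2 fold change between VPA-treated and untreated HEK293T cells, with bars of 1 standard error, for the 56 tested axonemal genes grouped by role; dotted lines mark a change of 1 in size and colour marks the call. Points lie mostly right of 0 in the groups of heavy chains, radial spokes and central apparatus, and on both sides of 0 in the lumen and other CFAP groups.

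Axonemal genes are known targets of RFX factors, which bind a promoter element called the X-box, and of FOXJ1, a forkhead protein, so their promoters were searched for such words. RefSeq promoter entries (GRCh38.p14, 250 bases before to 50 after each start) were at hand for 71 of the 87 genes, with 84 promoters. The long X-box word, GTNNCC followed after 2 bases of any kind by GGNAAC, searched on both strands, was in 10 of the 84 promoters (11.9%) and in 1.49% of all 35116 promoters. The short word GTTGCC was in 38 of the 84 (45.2%) and in 12.2% of all promoters. A forkhead word, TGTTTAC, was in 5 of the 84 (5.95%) and in 3.42% of all promoters. The long and short words overlap where both occur at one site, and 9 of the 10 genes with the long word also held the short one. A match is a string of letters and was not tested as a binding site.

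The short word occurred among genes of every class of response to VPA. Among the 14 up-regulated genes with an entry, 2 held the long word and 5 the short one. Among the 17 genes that were tested and did not pass, 3 held the long word and 11 the short one. Among the 28 genes that were too low to test, 4 held the long word and 16 the short one. The other classes were smaller, with 1 of 8 higher genes below the fold threshold and 0 of 4 lower genes holding the long word. The sequences below are shown because they span this range, with the long X-box word in capitals and the genes in order of their change. DNAH2 and DNAH11 were up-regulated, SPAG16 was higher below the fold threshold, and CFAP251 and CFAP45 did not pass the test. Each lies 5′ of its gene's start on GRCh38.p14, over no exon of GENCODE 44, and is read on the gene's own strand. The match of SPAG16 begins 184 bases before the start, and the window of CFAP251 lies within the gene ENSG00000256950.
DNAH2, chr17:7717711-7717743, plus strand: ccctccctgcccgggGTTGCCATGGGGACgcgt
DNAH11, chr7:21542996-21543038, plus strand: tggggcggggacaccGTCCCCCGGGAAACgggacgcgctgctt
SPAG16, chr2:213284265-213284308, plus strand: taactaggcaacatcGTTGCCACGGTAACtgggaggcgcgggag
CFAP251, chr12:121918545-121918588, plus strand: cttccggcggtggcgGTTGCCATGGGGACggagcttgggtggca
CFAP45, chr1:159900166-159900199, minus strand: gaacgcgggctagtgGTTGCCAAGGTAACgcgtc
The capitals of DNAH2, which had the largest fold change of all 56 genes, and of CFAP251, which did not pass the test, are the same letters. The matches also lay at like distances, the one of DNAH2 beginning 18 bases and the one of CFAP251 32 bases before the start.

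In the axonemal promoters the words gathered close to the start. The short word began within the 50 bases before the start in 22 of the 84 promoters (26.2%), and in 2.48% of all promoters. In the 50 bases before that it began in 11 of the 84 (13.1%) and in 2.40% of all. The long word began within the last 50 bases before the start in 7 of the 84 (8.33%) and in 0.456% of all promoters.

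**Figure D2:**
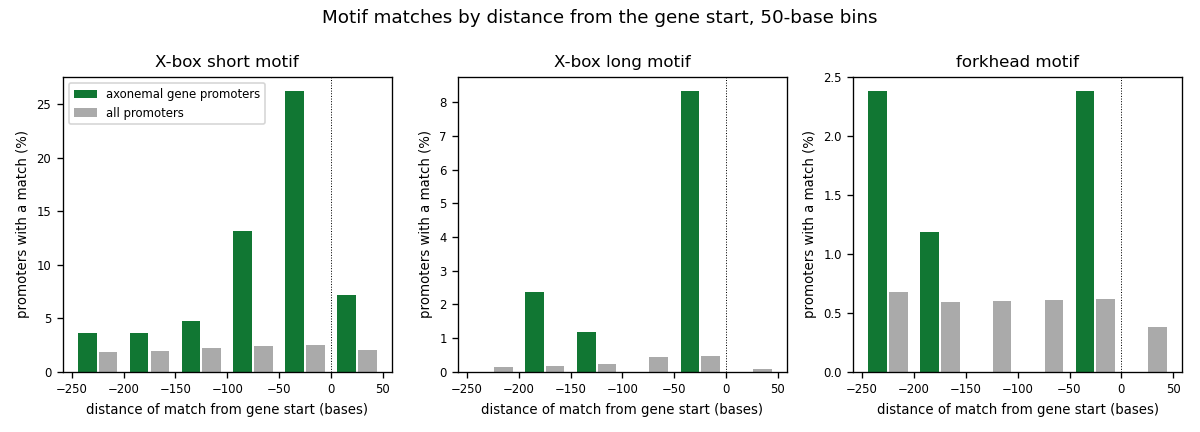
Bars give the percent of promoters in which a match to each word begins in each 50-base bin, by its distance from the gene start in bases, for 84 axonemal gene promoters and all 35116 promoters. The short and the long X-box words are highest in the 50 bases before the start of the axonemal genes, at 26.2% and 8.33%, and the forkhead bars rest on 5 promoters.

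The heavy chains are the motor subunits of the arms. Of the 13 heavy chain genes 9 were tested. Among these 6 were up-regulated and 8 were higher at the adjusted p, against 12% and 32.9% of all tested genes. Of the 6, DNAH2, DNAH3, DNAH5 and DNAH7 had passed the filter through the VPA-treated libraries only. DNAH11, an outer arm heavy chain, was the most abundant of the up-regulated genes, with 111, 102 and 112 counts in untreated and 331, 322 and 325 in VPA-treated libraries. The groups were far apart and the libraries of each group close together, with 113 ± 5.63 against 313 ± 3.79 normalized counts (mean ± SD, n = 3). The log2 fold change was 1.47 (SE 0.09, edgeR adjusted p = 5.02e-12), a 2.76-fold increase. In a test limited to genes averaging 50 counts or more, DNAH11 was up-regulated as well. No other up-regulated axonemal gene averaged that many counts, so the others were not in that test. The exons of DNAH11 overlap those of CDCA7L on the opposite strand, which went from 929 to 1007 normalized counts and did not pass the test (log2 fold change 0.12, adjusted p = 0.079).

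DNAH5, the other outer arm heavy chain that was tested, had 8, 2 and 3 counts in untreated and 12, 13 and 16 in VPA-treated libraries. The groups did not overlap, but the counts were few and the log2 fold change of 1.51 had an SE of 0.43 (edgeR adjusted p = 0.0044). DESeq2 gave an adjusted p of 0.051 for this gene. The remaining outer arm heavy chains were too low to test. DNAH9, the usual partner of DNAH5 along the outer part of respiratory cilia, had 0 counts in 5 libraries and 3 in the second VPA-treated one. DNAH8 and DNAH17, which serve in sperm tails, had 6 and 22 counts over the untreated and 10 and 27 over the VPA-treated libraries.

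DNAH2 had the largest fold change of all 56 genes. It is a heavy chain of the inner arm that regulates the waveform, where it is paired with DNAH10. The gene spans chr17:7717744-7833742 (GRCh38.p14) and had 5, 4 and 7 counts in untreated and 36, 32 and 26 in VPA-treated libraries. All VPA-treated libraries were well above the untreated ones, at a log2 fold change of 2.41 (SE 0.31, edgeR adjusted p = 9.03e-07) or 5.30-fold. No exon of another gene overlaps DNAH2 in GENCODE 44. DNAH10 rose from 18, 14 and 20 to 42, 43 and 55 counts, a log2 fold change of 1.30 (SE 0.22, edgeR adjusted p = 2.39e-05).

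Among the remaining inner arm heavy chains, DNAH7 rose from 18, 12 and 7 to 49, 40 and 47 counts (log2 fold change 1.75, SE 0.25, edgeR adjusted p = 3.92e-06). DNAH3 went from 6, 4 and 3 to 14, 16 and 10 counts (log2 fold change 1.47, SE 0.41, edgeR adjusted p = 0.0035), and DESeq2 gave it an adjusted p of 0.054. For both genes the groups did not overlap. DNAH6 was higher below the fold threshold, with 65, 54 and 53 counts in untreated and 105, 110 and 114 in VPA-treated libraries (log2 fold change 0.81, SE 0.13, edgeR adjusted p = 1.50e-05). DNAH12 was too low to test, at 7, 5 and 6 against 7, 10 and 13 counts.

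DNAH14 and DNAH1 were the most counted heavy chains. DNAH14 had 608, 530 and 544 counts in untreated and 716, 718 and 677 in VPA-treated libraries (log2 fold change 0.21, SE 0.06, edgeR adjusted p = 0.0056). The groups were apart by little, and DESeq2 gave an adjusted p of 0.056. DNAH1 had 286, 273 and 315 against 352, 294 and 292 counts, so the groups overlapped (log2 fold change -0.02, SE 0.09, edgeR adjusted p = 0.86). Per kilobase of exon, DNAH14 and DNAH1 were at 29.7 and 21.9 normalized counts in untreated cells, DNAH11 at 7.004 and DNAH2 at 0.331. After VPA the levels per kilobase were 34.3, 21.6, 19.4 and 1.79 in the same order, so DNAH11 had come close to DNAH1 while DNAH2 was still low.

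**Figure D3:**
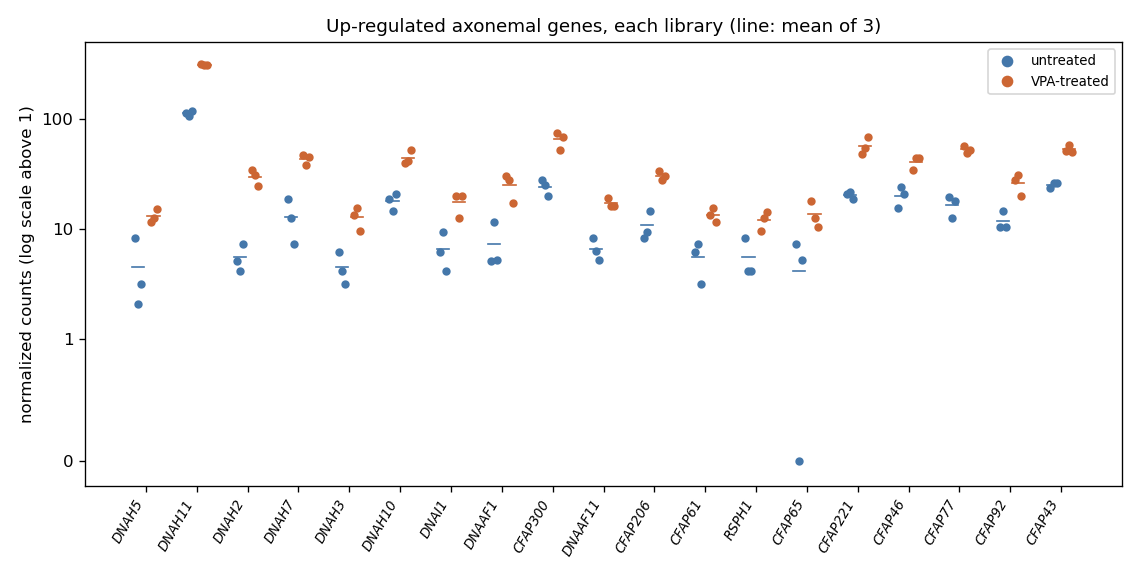
Each point is 1 library's normalized count (log scale above 1, with 0 shown) for the 19 up-regulated axonemal genes, with untreated and VPA-treated libraries side by side and a line at the mean of 3. The groups do not overlap for any of the 19 genes, and only DNAH11 is above 100. These genes were picked for their change in the same libraries, so the gap between the groups is no added evidence.

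The intermediate chains tie the motor subunits to the doublet, and 3 of the 5 were tested. DNAI1, of the outer arm, rose from 6, 9 and 4 to 21, 13 and 21 counts (log2 fold change 1.40, SE 0.36, edgeR adjusted p = 0.0020). It had passed the filter through the VPA-treated libraries only. Its partner DNAI2 had 0 counts in 5 libraries and 3 in the third VPA-treated one, so it was not detectable in untreated cells at this depth. DNAI3, of the inner arm, had 64, 62 and 50 against 94, 113 and 98 counts (log2 fold change 0.67, SE 0.14, edgeR adjusted p = 2.64e-04). DNAI4 had a log2 fold change of 0.09 and did not pass.

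The arm assembly factors were mixed. Of the 13 genes 11 were tested. Among these 3 were up-regulated, 6 higher and 1 lower at the adjusted p, against 12%, 32.9% and 30% of all tested genes. Of the 3, DNAAF1 and DNAAF11 had passed the filter through the VPA-treated libraries only. DNAAF1, a leucine-rich repeat protein needed for both arms, had 5, 11 and 5 counts in untreated and 32, 29 and 18 in VPA-treated libraries (log2 fold change 1.77, SE 0.34, edgeR adjusted p = 1.29e-04). CFAP300, which works with the assembly factors, rose from 27, 24 and 19 to 78, 55 and 72 counts (log2 fold change 1.42, SE 0.20, edgeR adjusted p = 1.77e-06). DNAAF11 rose from 8, 6 and 5 to 20, 17 and 17 counts (log2 fold change 1.37, SE 0.33, edgeR adjusted p = 0.0012). In these 3 genes every VPA-treated library was above every untreated one.

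DNAAF3, SPAG1 and DNAAF9 were higher below the fold threshold, with log2 fold changes of 0.78, 0.43 and 0.39. DNAAF2, a co-chaperone that acts early in heavy chain folding, was lower at -0.25 (edgeR adjusted p = 0.0024), though with library totals as the scaling it was at -0.12 and did not pass. DNAAF5, a HEAT repeat protein of arm preassembly, was the most counted of all 87 genes, with 2911, 2690 and 2561 counts in untreated and 2955, 2600 and 2680 in VPA-treated libraries. The groups overlapped, and its log2 fold change was -0.11 (SE 0.05, edgeR adjusted p = 0.066). It passed as lower with DESeq2 (adjusted p = 0.048) and its size factors (adjusted p = 0.033), without the filter and without untreated library 3 or VPA-treated library 1, while with library totals it was at 0.02. Per kilobase of exon DNAAF5 was at 398 normalized counts in untreated cells, against 0.94 for DNAAF1, 0.331 for DNAH2 and 0.181 for DNAH5.

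Among the radial spoke genes, 7 of 11 were tested. Of these 3 were up-regulated, 4 higher and 0 lower, against 12%, 32.9% and 30% of all tested genes. All 3 up-regulated genes had passed the filter through the VPA-treated libraries only. CFAP206, which docks a spoke to the doublet, rose from 8, 9 and 14 to 35, 29 and 32 counts (log2 fold change 1.50, SE 0.27, edgeR adjusted p = 4.79e-05). CFAP61, of the complex at the spoke base, went from 6, 7 and 3 to 14, 16 and 12 counts (log2 fold change 1.25, SE 0.38, edgeR adjusted p = 0.0071), and DESeq2 gave an adjusted p of 0.087. RSPH1, of the spoke head, had 8, 4 and 4 against 10, 13 and 15 counts, with 2 counts between the nearest libraries of the groups. Its log2 fold change was 1.11 (SE 0.40, edgeR adjusted p = 0.019), with an adjusted p of 0.15 by DESeq2 and of 0.052 to 0.083 when untreated library 2 or 3 or VPA-treated library 2 or 3 was left out.

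RSPH3, of the spoke stalk, was the most counted radial spoke gene and was higher below the fold threshold, at 228, 231 and 206 against 296, 307 and 314 counts (log2 fold change 0.34, SE 0.08, edgeR adjusted p = 7.74e-04). RSPH4A, a core of the spoke head, had 38, 31 and 39 against 46, 57 and 47 counts, groups that did not overlap, with a log2 fold change of 0.35 that did not pass (edgeR adjusted p = 0.090). RSPH9, another spoke head gene, was too low for the main test and went the other way, with 7, 6 and 4 counts in untreated and 3, 2 and 0 in VPA-treated libraries.

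The central apparatus, the pair of single microtubules and its projections, had 7 of its 10 genes tested. Of these 3 were up-regulated, 5 higher and 0 lower, against 12%, 32.9% and 30% of all tested genes. Of the 3, CFAP65 had passed the filter through the VPA-treated libraries only. CFAP65 had 7, 0 and 5 counts in untreated and 19, 13 and 11 in VPA-treated libraries (log2 fold change 1.69, SE 0.50, edgeR adjusted p = 0.0063). CFAP221, of a projection of the central pair, rose from 20, 21 and 18 to 50, 57 and 72 counts (log2 fold change 1.47, SE 0.20, edgeR adjusted p = 2.08e-06). CFAP46, of the same projection, had 15, 23 and 20 against 36, 46 and 46 counts (log2 fold change 1.02, SE 0.22, edgeR adjusted p = 3.77e-04). It stood at the edge of the fold threshold and was at 0.85 without untreated library 1 and at 0.96 without VPA-treated library 2 or 3.

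SPAG17 and SPAG16, also of the central apparatus, were higher below the fold threshold. SPAG16 was the most counted gene of the group, at 289, 253 and 287 against 374, 396 and 392 counts (log2 fold change 0.37, SE 0.07, edgeR adjusted p = 2.15e-04), and SPAG17 had a log2 fold change of 0.66, with a DESeq2 adjusted p of 0.12. SPAG6, another gene of this group, was too low for the main test. It had 0, 2 and 1 counts in untreated and 8, 8 and 11 in VPA-treated libraries, so that the groups did not overlap.

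Of the 19 tektins and proteins that line the doublets, 9 were tested. Among these 1 was up-regulated, 2 were higher and 2 lower at the adjusted p. The shares over all tested genes were 12%, 32.9% and 30%, so this group did not stand out. CFAP77, which sits inside the B-tubule, rose from 19, 12 and 17 to 60, 51 and 55 counts (log2 fold change 1.66, SE 0.21, edgeR adjusted p = 5.63e-07). TEKT3 was higher below the fold threshold at 0.82, with a DESeq2 adjusted p of 0.099. TEKT2 did not pass at 0.49 with overlapping groups of 6, 20 and 10 against 22, 18 and 15 counts, and TEKT1 had 1 count in all. TEKT4, which has near-identical copies that make its counts uncertain, was too low to test at 3, 1 and 1 against 13, 7 and 7 counts.

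CFAP20, an inner junction protein that is also present in many cells without motile cilia, was the most counted gene of the group and of all 87 genes per kilobase of exon. It had 1192, 1190 and 1225 counts in untreated and 1164, 1122 and 1217 in VPA-treated libraries (log2 fold change -0.16, SE 0.05, edgeR adjusted p = 0.0056). The raw counts overlapped and the normalized ones did not, and with library totals as the scaling the log2 fold change was -0.03 and did not pass. CFAP68 was lower at -0.34 and also did not pass with library totals.

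Of the 16 other CFAP genes, 10 were tested. Among these 2 were up-regulated, 3 higher and 2 lower at the adjusted p. The shares over all tested genes were 12%, 32.9% and 30%, so this group did not stand out either. CFAP92 rose from 10, 14 and 10 to 29, 32 and 21 counts (log2 fold change 1.14, SE 0.28, edgeR adjusted p = 0.0012). It had passed the filter through the VPA-treated libraries only. CFAP43, which with CFAP44 tethers the inner arm that holds DNAH2 and DNAH10, rose from 23, 25 and 25 to 54, 60 and 52 counts (log2 fold change 1.06, SE 0.18, edgeR adjusted p = 3.15e-05). CFAP44 itself was too low to test, at 0, 1 and 1 against 7, 4 and 1 counts. CFAP36, the most counted of them, had 701, 775 and 744 against 713, 848 and 874 counts and a log2 fold change of 0.01 (SE 0.07, edgeR adjusted p = 0.89).

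The lower genes here were CFAP97, at a log2 fold change of -0.33, and CFAP73, which acts on inner arm docking, at -0.69 (edgeR adjusted p = 0.0065). CFAP73 had 51, 45 and 38 counts in untreated and 40, 27 and 23 in VPA-treated libraries, so the raw counts overlapped in 1 library pair. An exon of CFAP73 overlaps DDX54 on the opposite strand, which went from 4794 to 3595 normalized counts and was lower as well (log2 fold change -0.42). The libraries were strand-specific, but the strand setting of the counting is not given in the sources used here, and the part of such overlap in the counts was not tested.

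Exons overlap another gene on the opposite strand in 9 of the 19 up-regulated genes and in 43 of all 87. The neighbours that lie opposite CFAP61, CFAP92 and DNAAF1 moved the other way: CRNKL1 had a log2 fold change of -0.40, ACAD9 of -0.16 and TAF1C of -0.17. Opposite DNAH10 and RSPH1, CCDC92 and SLC37A1 were higher, at 0.22 and 0.48.

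**Figure D4:**
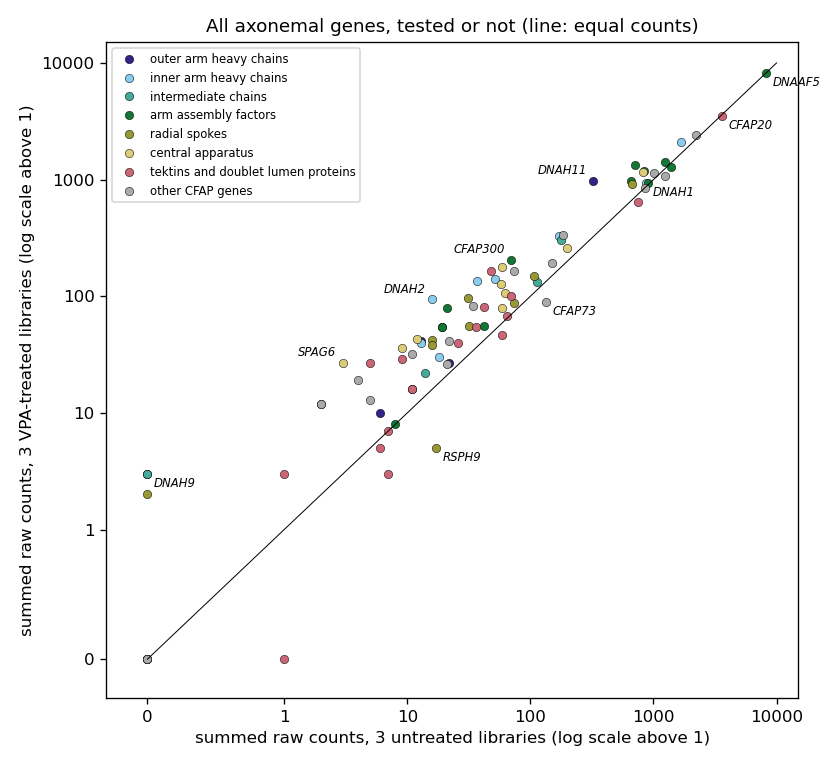
Each point is 1 of the 87 axonemal genes, with its raw counts summed over 3 untreated libraries on the x axis and over 3 VPA-treated libraries on the y axis (log scales above 1, with 0 shown), coloured by role; the line marks equal counts. Genes under about 300 counts lie mostly above the line, as DNAH2 does at 16 against 94, while DNAAF5 at 8162 against 8235 and CFAP20 at 3607 against 3503 lie on it.

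Some axonemal genes outside the test differed too. Of the 31 untested genes, every VPA-treated library was above every untreated one in the normalized counts of SPAG6, CFAP74, TEKT4, CFAP299 and CFAP161, and below in those of RSPH9. The share of such genes among all untested genes was not obtained, so these are listed without a comparison. When no filter on low counts was used, 26 of 82 axonemal genes were up-regulated, against 9.56% of all 26353 genes with a count. Both sets then hold genes too low for the main test. In this fit SPAG6 had a log2 fold change of 2.89 (SE 0.71, edgeR adjusted p = 1.87e-04) and RSPH9 of -1.83 (SE 0.71, edgeR adjusted p = 0.026). No axonemal gene went from 0 counts in all untreated libraries to a count in every VPA-treated library, as 0.779% of all listed genes did.

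Detection was compared per library. Of the 87 genes, 75, 73 and 76 were seen with at least 1 count before treatment and 77, 79 and 76 after it, a difference in means of 2.67 genes (exact permutation test, two-sided, p = 0.2). At least 10 counts were found for 45, 46 and 44 genes in untreated and 60, 62 and 61 in VPA-treated libraries, a difference of 16 genes (exact permutation test, two-sided, p = 0.1; with 3 libraries a group no smaller p is possible). Over all listed genes the libraries had 14545 to 14646 genes with at least 10 counts when untreated and 15501 to 15567 after VPA. With at least 1 count they had 20719 to 20916 when untreated and 22279 to 22425 after VPA, so detection rose among all genes as well.

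Summed over the 87 genes, the level was 543 ± 20.2 before and 641 ± 8.30 CPM after VPA, counts scaled to the library total (mean ± SD, n = 3, exact permutation test, two-sided, p = 0.1). DNAAF5 alone made up 24.7% of all these counts and CFAP20 10.7%. Over the 69 genes with a mean under 200 normalized counts, the sum was 46.7 ± 3.23 CPM in untreated and 85.5 ± 2.50 CPM in treated cells. The outer arm heavy chains were at 6.49 ± 0.34 and 18.9 ± 0.07 CPM, most of it DNAH11, and the lumen genes were at 84.4 ± 1.40 and 85.9 ± 1.88 (exact permutation test, two-sided, p = 0.5). In bulk RNA, more cells with such transcripts and more transcripts per cell cannot be told apart.

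The regulators that switch these genes on in multiciliated cells moved in both directions. FOXJ1, the forkhead factor that marks motile ciliated cells, had 3, 2 and 1 counts in untreated and 2, 2 and 2 in VPA-treated libraries, so no rise was detectable at this depth. RFX2 and RFX3, which bind X-boxes, were higher, RFX2 at 200, 186 and 176 against 388, 320 and 337 counts (log2 fold change 0.77, SE 0.09, edgeR adjusted p = 1.33e-07) and RFX3 at 113, 92 and 101 against 189, 175 and 181 counts (log2 fold change 0.71, SE 0.11, edgeR adjusted p = 5.31e-06). RFX1 was lower at -0.35 (edgeR adjusted p = 0.015), which did not pass with library totals as the scaling, and RFX4 had 0, 0 and 1 against 5, 3 and 4 counts.

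Upstream in the cascade, GMNC, a geminin relative that starts multiciliation, rose from 8, 4 and 1 to 19, 14 and 28 counts (log2 fold change 2.08, SE 0.44, edgeR adjusted p = 3.24e-04). MCIDAS, a relative that acts with E2F4 and E2F5, was counted before treatment and did not pass, at 73, 90 and 80 against 116, 86 and 87 counts (log2 fold change 0.13). CCNO, a cyclin of centriole amplification, had an adjusted p of 0.049 at a log2 fold change of 0.31 and did not pass with DESeq2 or with its size factors, and TP73 was lower at -0.40 (edgeR adjusted p = 0.0012). Of the 16 regulators 13 were tested. Among these 4 were up-regulated, 8 higher and 4 lower at the adjusted p, against 12%, 32.9% and 30% of all tested genes. MYB, FOXN4 and CDC20B were the other up-regulated ones, with log2 fold changes of 1.16, 1.40 and 1.84. GMNC and CDC20B were under 10 counts in every untreated library and had passed the filter through the VPA-treated libraries only. DEUP1, which builds the deuterosome of multiciliated cells, had 0 counts in untreated libraries and 2, 0 and 1 after VPA.

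**Figure D5:**
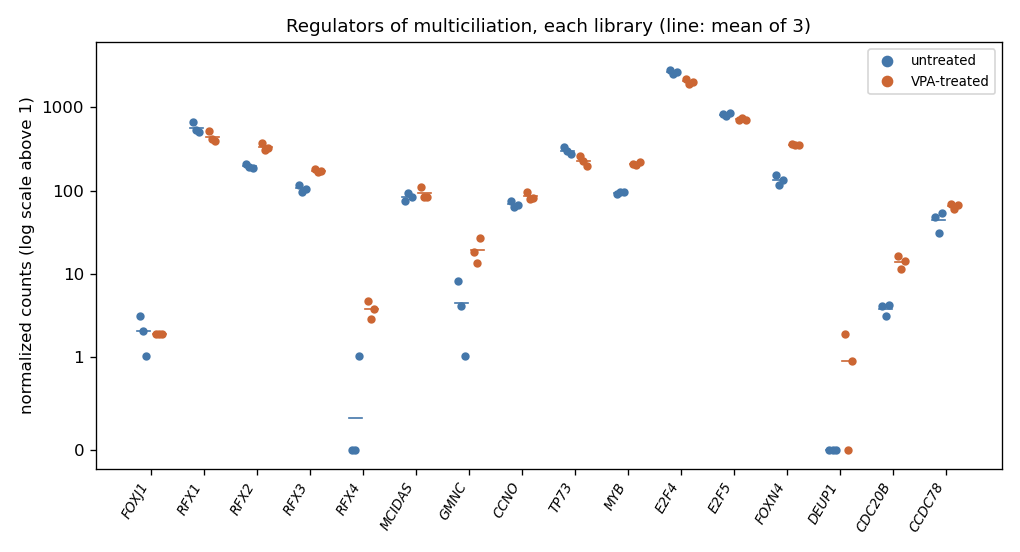
Each point is 1 library's normalized count (log scale above 1, with 0 shown) for 16 regulators of multiciliation, with untreated and VPA-treated libraries side by side and a line at the mean of 3. FOXJ1 is at about 2 in both groups, RFX2, RFX3, GMNC, MYB, FOXN4 and CDC20B are higher after VPA, and E2F4 and TP73 are lower.

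Other genes of motile axonemes that the symbols did not pick, such as docking complex, ruler and nexin-dynein genes, were examined from a list of 41. Of these 32 were tested, 5 were up-regulated, 12 were higher and 3 lower, against 12%, 32.9% and 30% of all tested genes. The up-regulated and the higher genes were close to those shares, and the lower ones were below theirs. The median log2 fold change was 0.30, against 0.0058 over all tested genes. The up-regulated ones were CCDC39 (1.63), which sets the repeat length of the axoneme, AK7 (1.55), the docking complex gene ODAD3 (1.20), ROPN1L (1.14) and PIERCE2 (1.02). Of these, CCDC39, ROPN1L and PIERCE2 were not above the filter's minimum in all untreated libraries and had passed it through the VPA-treated ones. DNAL1 and DNAL4, light chains of axonemal dynein, did not pass at 0.04 and 0.09.

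Genes of the primary cilium and of cytoplasmic dynein were counted in the same way, against the same 32.9% higher and 30% lower over all tested genes. Of 57 genes for intraflagellar transport and the primary cilium, 56 were tested, 0 were up-regulated, 21 were higher and 6 lower, with a median log2 fold change of 0.10 that depended on the scaling (39 higher and 0 lower with library totals). Of 17 genes for cytoplasmic dynein and dynactin, 16 were tested, 1 was higher and 10 lower, with a median of -0.16 (4 higher and 4 lower with library totals). The one up-regulated gene was DYNC1I1, an intermediate chain with 49, 50 and 43 counts in untreated and 151, 183 and 193 in VPA-treated libraries (log2 fold change 1.77, SE 0.14, edgeR adjusted p = 2.50e-10).

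The label of the cells was compared with fixed markers. All 5 genes known from HEK293T cells were counted in every library, and they moved with treatment, with PAX2 (2.26) and KRT8 (1.37) up-regulated, NEFM (0.87) and KRT18 (0.22) higher and VIM (-0.27) lower on the log2 scale. Of 5 fibroblast markers, 4 were tested and all 4 were up-regulated after VPA, with a summed level of 23.3 to 26.9 CPM in untreated and 87.3 to 97.2 in VPA-treated libraries. Of the 4, DCN had passed the filter through the VPA-treated libraries only. COL1A2 was at 0 in all untreated libraries and had at most 1 count in a VPA-treated one. The 5 blood cell markers summed to 0.21 and to between 0.589 and 0.644 CPM, with PTPRC, CD3E, HBA1 and HBB at 0 in all untreated libraries. The part of other cells in the axonemal gene counts was not tested. Of the 6 multiciliated cell markers, GMNC and CDC20B were up-regulated, CCNO was higher, MCIDAS did not pass, and FOXJ1 and DEUP1 were too low to test.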

How the data were processed

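Libraries were made from total RNA with a strand-specific mRNA protocol. The authors used SOAPnuke to clean reads and STAR to align them to hg38, and deposited raw counts per gene from htseq-count, without normalization. The submitters' processing notes give STAR 2.7.10b and HTSeq 2.0.1, and the paper's methods another HTSeq version. The annotation and strand setting of the counting are not given in the sources used here.

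The 87 genes were selected by symbol. Groups were taken from the sample titles. All genes were fitted with edgeR 4.0.16 in R 4.3.3 (TMM, filterByExpr with a count minimum of 10, robust quasi-likelihood fit, prior count 0.125), with Benjamini-Hochberg adjustment over 15298 genes. The thresholds for a call were 0.05 on the adjusted p and 1 on the size of the log2 fold change. Standard errors were obtained from each fold change and its F statistic. Normalized counts use the TMM factors and the size of the average library. The fit was tested on simulated counts. The biological coefficient of variation was 3.83%. DESeq2 1.42.0, other scalings, filters, a replicate block and leaving out each library were alternatives. Coordinates and promoters are from RefSeq GRCh38.p14, exon lengths and overlaps from GENCODE 44. Per-library values were given for the up-regulated genes, the tested heavy chains and the most counted gene of each role. Other genes were added after their values were seen, among them DNAI3, RSPH4A, RSPH9, SPAG6, TEKT2, TEKT4, CFAP44 and CFAP73. The genes, lists and roles were chosen with earlier results of these data known. Of 153 list symbols 146 matched. The ChIP-seq and imaging data of the study were not used here.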

Additional observations from a re-analysis of the deposited data

How the results depend on the processing

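The number of up-regulated genes was 19 by default and stayed within 1.5 times of it under other scalings, DESeq2 (17) and no filter (26). DESeq2 called 14 of the 19, not CFAP46, CFAP61, DNAH3, DNAH5 and RSPH1, and added SPAG6, CFAP74 and TEKT4. Of the 19, only DNAH11 averaged 50 counts or more. In a test limited to genes of that mean, 1 of 23 axonemal genes was up-regulated, against 974 of all 12209 such genes. With glmTreat, which tests against the fold threshold, it was 4 of 56, against 1149 of all 15298. In neither setting was the share of axonemal genes above that of all genes. Leaving out each library gave 17 to 21. Without the filter 1 gene, RSPH9, was down-regulated. At the adjusted p alone 11 genes were higher under that mean filter and 2 were lower with library totals, which shift the median of all genes to 0.14. The median log2 fold change of 0.49 moved to 0.62 with library totals, 0.59 with DESeq2, 0.58 without a filter, 0.24 with that mean filter, and 0.47 to 0.62 when each library was left out.

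Over 28 named genes and their alternatives, 282 of 318 values kept direction and call, 18 lost the call, 6 gained it and 12 changed sign. The sign changes were in 3 genes that did not pass: CFAP36 (-0.0018 with DESeq2 size factors, -0.012 with DESeq2, -0.0098 without a filter, -0.044 to 0.097 without a library), DNAAF5 (0.022 with library totals) and DNAH1 (0.11 with library totals, 0.015 with a mean of at least 50 counts, -0.11 to 0.037 without a library). CFAP61 was at 0.97 without untreated library 3 and CFAP43 at 0.99 without VPA-treated library 2, both under the fold threshold, and DNAH14 had an adjusted p of 0.050 without untreated library 2. The cause was not tested.

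With the replicate number as a block, 19 genes were up-regulated, 30 higher and 6 lower, with a median of 0.49, and DNAAF5 passed as lower. Same-numbered libraries correlated at 0.139, 0.0214 and 0.0805, and not every library correlated best with its own number, so the numbers were not taken as pairs. Depth limits what can be said of the untested genes, among them CFAP100, CFAP107 and RSPH6A at 0 in all libraries. For CFAP47 and DNAAF6 nothing can be said, as every gene on chromosome X is listed at 0.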
